A study of Mus musculus with 6 samples.

Results

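The mitotic programme of Ba/F3 cells was followed through 36 genes of the G2 phase and of mitosis, from the cyclins that start it to the proteins that part the daughter cells. The genes were listed by their known function. Each was read from its brightest probe set, the one with the highest mean signal over the 6 arrays of the series. Such a probe set with exactly 1 gene symbol was found for 35 of the 36, and all 35 were bright enough to be tested among 10916 genes in all. Ccnb1, the gene of cyclin B1, had none and is not analysed here.

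Ba/F3 is a mouse pro-B cell line that depends on interleukin 3 for growth. All cells carried a retroviral, doxycycline-inducible (Tet-on) construct for NCOR1-LYN, a fusion of parts of the nuclear receptor corepressor NCOR1 and of the SRC family tyrosine kinase LYN. In 3 samples the fusion was switched on with doxycycline (NCOR1-LYN), and 3 samples of uninduced cells served as control. The drug went to all NCOR1-LYN samples and to no control, so the effects of drug and fusion cannot be told apart. The sources used here give neither the dose nor the time of induction, nor whether the line is 1 clone. They call the cultures triplicates and say no more, and p-values here reflect only how far these arrays scatter, which may be technical.

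Entry into mitosis is driven by the kinase CDK1 bound to A- and B-type cyclins, which CDC25 phosphatases activate and which Polo-like and Aurora kinases assist. Kinetochores then tie chromosomes to the spindle, and checkpoint proteins hold back the anaphase-promoting complex (APC/C) until every chromosome is attached. When the complex becomes active it marks securin and cyclins for destruction, separase cuts cohesin, and the spindle midzone guides cytokinesis. Most of these genes are transcribed late in the cell cycle, under FOXM1, B-MYB and the MuvB complex, so that their RNA in a culture is known to follow its share of dividing cells. In RNA of a whole culture, fewer cells in mitosis and less RNA per cell cannot be told apart.

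The arrays gave linear signals, scaled by the authors to the same trimmed mean, with medians of 54.8 to 61.9 per array. Replicate 1 of both groups stood apart. Over the 10916 genes its log2 values correlated at 0.973 between the groups and at 0.950 to 0.966 with the other 4 arrays, which correlated with one another at 0.986 to 0.994. The labels name no batch or day that would go with the replicate number. Of 9 genes listed as pro-B cell markers on the array, 5 lay above the filter on dim genes. Ptprc read 8278 to 10430, Il3ra 403 to 727 and Cd79b 403 to 577. Pax5 (7.65 to 125) and Igll1 (13.9 to 178.5) were dim in some arrays. Cd79a, Ebf1, Vpreb1 and Rag1 lay below the filter, so the B-lineage markers were only partly present. Of 5 T and NK cell markers 0 lay above the filter.

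Switching on NCOR1-LYN left the 35 mitotic genes within the spread of the arrays. In limma 0 of 35 passed an adjusted p of 0.05, where 9 of the 10916 genes (0.0824%) did, 0.055% of them higher and 0.0275% lower, and 0 of 35 passed an unadjusted p of 0.05, where 4.75% of all genes did. Their median log2 difference, NCOR1-LYN minus control, was −0.02 (−0.01 over all genes), with 17 positive and 18 negative values between −0.33 and 0.24. For 0 of 35 genes did the 3 NCOR1-LYN arrays lie wholly above or wholly below the 3 controls (5.17% and 6.06% of all genes). The 95% interval of the difference stayed within 2-fold in both directions for 33 of 35 genes, Gtse1 and Ect2 being the exceptions.

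Same-numbered arrays deviated together, which set replicate 1 apart but did not tell replicates 2 and 3 from each other. The comparison was also made within pairs of equal replicate number, with the number as a block. The match in pairs 2 and 3 rests on the numbers in the labels alone. Again 0 of 35 genes were called (0.824% of all genes, 0.266% higher and 0.559% lower), while 3 passed an unadjusted p of 0.05 (11.3% of all genes), and all 35 intervals stayed within 2-fold. The sign was the same in all 3 pairs for 9 genes. Of these, 7 were lower with NCOR1-LYN (18.9% of all genes were) and 2 were higher (15.9% of all genes), while 26 were mixed.

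Among the values nearest to a difference, Kif20a, a kinesin that works at the spindle midzone, read 1557, 1926 and 1903 in control replicates 1, 2 and 3 and 1258, 1407 and 1570.2 in the NCOR1-LYN replicates in the same order. Each NCOR1-LYN array lay below its partner, though the highest NCOR1-LYN array exceeded the lowest control. The log2 difference was −0.33 ± 0.14 (SE), with adjusted p of 0.999 in limma without and 0.243 with the block. Aurka, the kinase of centrosomes and spindle poles, read 1974, 2955 and 3015 in control and 1712, 2493 and 2513 with NCOR1-LYN, a log2 difference of −0.23 ± 0.22 (SE), and Cenpa, the histone H3 variant of centromeres, had −0.22 ± 0.26 (SE). Both were lower in all 3 pairs with overlapping groups. With both replicate 1 arrays left out, Kif20a (−0.35, limma adjusted p = 0.0231) and Aurka (−0.25, limma adjusted p = 0.0445) passed the threshold, where 6.78% of all genes did.

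On the positive side, Foxm1, the transcription factor of late cell cycle genes, read 218, 337 and 285 in control and 454, 288 and 290.0 with NCOR1-LYN. Only the NCOR1-LYN replicate 1 array was high, and the log2 difference was 0.24 ± 0.22 (SE). Kif11, the kinesin that pushes spindle poles apart, read 1466, 2064 and 1808 in control and 1739, 2257 and 2152 with NCOR1-LYN. Each NCOR1-LYN array was above its partner, the groups overlapped, and the log2 difference was 0.20 ± 0.17 (SE). Anln, an actin-binding protein of the cleavage furrow, had the same log2 difference of 0.20 ± 0.24 (SE). None of these passed the threshold, with or without the block. The summed signal of the 8 myeloid markers, 5 of them above the filter, was 2396 to 3018 in control and 3172 to 6468 with NCOR1-LYN, with Prtn3 at means of 1195 and 3618, Csf1r at 147 and 139 and Adgre1 at 847 and 774, and with Elane, Itgam and Cd14 below the filter. That of the 7 mast cell markers, 3 of them above the filter, was 764 to 1874 in control and 1899 to 4642 with NCOR1-LYN. Of the 3, Fcer1a had means of 568 in control and 3234 with NCOR1-LYN. Cma1 (330 and 46.2) and Ms4a2 (147 and 124) were lower with NCOR1-LYN. Kit, Cpa3, Tpsb2 and Hdc lay below the filter. In pair 1 the myeloid sums were close, at 3018 in control and 3172 with NCOR1-LYN. The mast cell sums there were 1874 and 1899. Prtn3 read 1763 in control and 1745 with NCOR1-LYN in pair 1, against 932 and 4326 in pair 2 and 891 and 4782 in pair 3. Fcer1a read 975 and 1596 in pair 1, against 388 and 4386 in pair 2 and 341 and 3721 in pair 3. The part of these in the values was not tested.

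**Figure D1:**
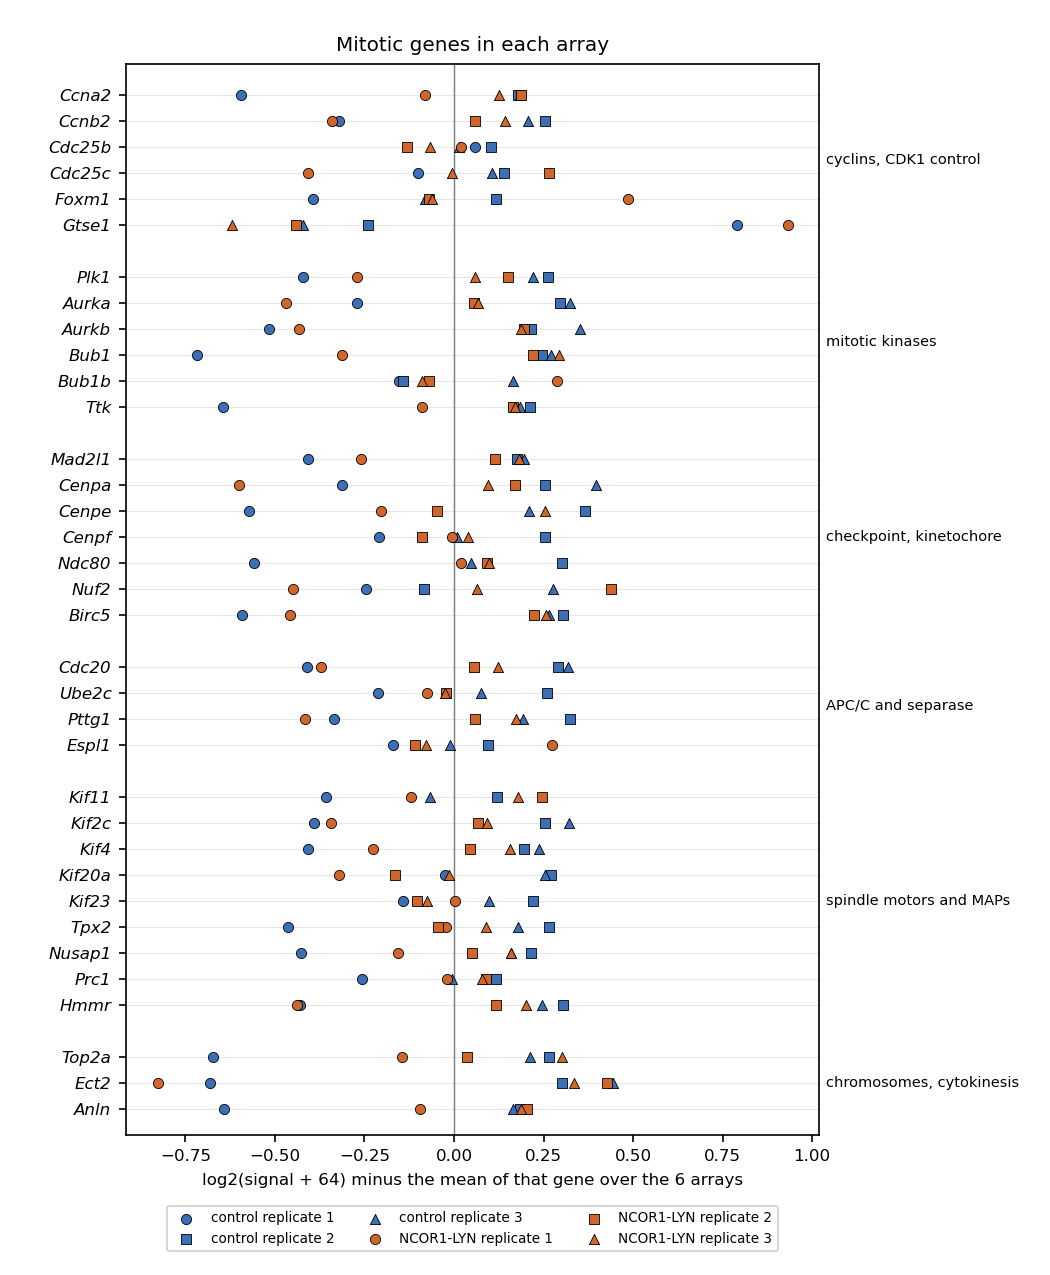
Log2 signal (with 64 added) of each of 35 mitotic genes in each array, minus that gene's mean over the 6 arrays (x axis). Genes are grouped by role on the y axis, colours mark control and NCOR1-LYN, and circles mark replicate 1. In 26 genes both circles lie left of the 4 other points, and in Gtse1 both lie to the right, while blue and orange overlap in every row.

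The larger contrast among these arrays ran along the replicate number. Replicate 1 was known from these same arrays to lie apart, so its p-values do not test an independently chosen split. In replicate 1 most of the mitotic genes were lower than in replicates 2 and 3 of the same group. With the group as a term in limma, 24 of 35 genes passed the threshold (34.4% of all genes), and 28 passed an unadjusted p of 0.05 (45% of all genes). Of these 23 fell in replicate 1 (15% of all genes fell) and 1, Gtse1, rose (19.4% of all genes rose). The median log2 difference was −0.50, a fold of 0.707, against 0.04 over all genes. Both replicate 1 arrays lay below the other 4 in 26 genes (21.4% of all genes), above them in 1 (26.8%), and among them in 8. Centring every array on its median moved the median of all genes from 0.04 to −0.07 and that of the 35 genes to −0.62. After it 28 of the 35 were called lower and 1 higher, where 35.1% of all genes were called.

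Beside these values, the beta-actin control probes had a 3′ to 5′ signal ratio of 1.15 and 1.17 in the replicate 1 arrays and 1.19 to 1.24 in the others, and those of Gapdh had 0.681 and 0.685 against 0.703 to 0.742. The summed signal of 4 erythroid markers, of which Epor and Klf1 lay above the filter and Hba-a1 and Alas2 below it, was 3634 to 5985 in replicate 1 and 2212 to 2884 in the others. The part of these in the replicate 1 difference was not tested.

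Of the cyclins and regulators of CDK1, 2 of 6 fell and 1 rose in replicate 1 (15% and 19.4% of all genes). The share that rose was near that of all genes, and the median log2 difference was −0.16. Ccna2, cyclin A2, read 3313, 5707 and 5723 in control and 4756, 5742 and 5493 with NCOR1-LYN. Both replicate 1 arrays were the lowest of their group, the control one by far, and the log2 difference was −0.51 ± 0.12 (SE, limma adjusted p = 0.0143). Ccnb2, cyclin B2, fell by 0.50 on the log2 scale. Gtse1, a microtubule-binding protein that also restrains p53 in G2, went the other way. It read 1174, 542 and 470.5 in control and 1300.1, 463 and 401 with NCOR1-LYN, so that both replicate 1 arrays were more than all others, at a log2 difference of 1.29 ± 0.12 (SE, limma adjusted p = 0.000503). The phosphatase genes Cdc25b and Cdc25c (0.06 and −0.38) and Foxm1 (0.07) did not pass.

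Of the 6 mitotic kinases 5 fell (15% of all genes), with a median log2 difference of −0.55. Bub1, the checkpoint kinase that marks centromeres, read 1880.1, 3722 and 3794 in control and 2508, 3658 and 3849 with NCOR1-LYN. Its replicate 1 arrays were the lowest of both groups without overlap, and the log2 difference was −0.77 ± 0.10 (SE, limma adjusted p = 0.00153). Aurkb, the kinase of the chromosomal passenger complex, read 1909, 3214 and 3542 in control and 2026, 3168 and 3153 with NCOR1-LYN, a log2 difference of −0.71 ± 0.09 (SE, limma adjusted p = 0.00101). Its 4 arrays of replicates 2 and 3 kept within a narrow band above both replicate 1 arrays. Aurka, whose signals are given above, fell by 0.56, Ttk, the kinase MPS1 at the head of the spindle checkpoint, by 0.55, and Plk1, Polo-like kinase, by 0.52. Bub1b, which encodes the checkpoint protein BUBR1, had 0.10 and did not pass.

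Checkpoint, kinetochore and centromere genes had a median log2 difference of −0.52, and 5 of 7 fell (15% of all genes). Birc5, survivin of the chromosomal passenger complex, read 3650.5, 6852 and 6669 in control and 4018, 6477 and 6629 with NCOR1-LYN. Both replicate 1 arrays lay far below the other 4, and the log2 difference was −0.79 ± 0.08 (SE, limma adjusted p = 0.000541). Cenpa read 4707, 7006 and 7740.3 in control and 3850.4, 6604 and 6269 with NCOR1-LYN, again with both replicate 1 arrays below the other 4 and a log2 difference of −0.68 ± 0.08 (SE, limma adjusted p = 0.00094). Mad2l1, the checkpoint protein MAD2, fell by 0.50, Cenpe, a kinetochore kinesin, by 0.58, and Nuf2, a subunit of the NDC80 complex that grips microtubules, by 0.52. Ndc80 itself (−0.41) and Cenpf (−0.16), a large kinetochore protein, did not pass.

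Around the APC/C, 2 of 4 genes fell (15% of all genes). Cdc20, its mitotic activator, read 6229, 10164 and 10361 in control and 6399.8, 8627 and 9044 with NCOR1-LYN. The replicate 1 arrays were the lowest, and the log2 difference was −0.59 ± 0.08 (SE, limma adjusted p = 0.0019). Pttg1, securin, fell by 0.56, whereas Ube2c, a ubiquitin-conjugating enzyme of the complex (−0.22), and Espl1, separase (0.08), did not pass.

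Among spindle motors and microtubule-associated proteins 6 of 9 fell (15% of all genes), with a median of −0.36. Hmmr, a spindle protein that binds hyaluronan outside cells, read 2389, 4016 and 3858 in control and 2376, 3524 and 3741 with NCOR1-LYN, a log2 difference of −0.65 ± 0.08 (SE, limma adjusted p = 0.00101). Its replicate 1 arrays were nearly equal in both groups and below all others. The kinesins Kif2c, which takes microtubules apart at kinetochores, and Kif4, a chromokinesin, fell by 0.55 and 0.47. Kif11 fell by 0.36, Nusap1, a spindle assembly protein, by 0.44, and Kif20a by 0.26, just within the threshold (limma adjusted p = 0.0493). Kif23 (−0.10), Prc1 (−0.21), both of the spindle midzone, and Tpx2 (−0.36), the activator of Aurora A, did not pass.

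All 3 genes of chromosome structure and cytokinesis fell (15% of all genes). Ect2, the exchange factor that activates RhoA for the cleavage furrow, had the lowest log2 difference of the 35 genes. It read 1581, 3183 and 3525 in control and 1421, 3481 and 3262 with NCOR1-LYN. The replicate 1 arrays were alike in both groups and far below the rest, at −1.13 ± 0.09 (SE, limma adjusted p = 0.000324). Top2a, the topoisomerase that untangles sister chromatids, read 8976, 17273 and 16649 in control and 12988, 14738 and 17699.7 with NCOR1-LYN, a log2 difference of −0.61 ± 0.14 (SE, limma adjusted p = 0.0123). Its control replicate 1 array stood clearly apart, and its NCOR1-LYN replicate 1 array only slightly. Anln fell by 0.55.

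Other probe sets of the same genes varied in their direction. For 14 of the genes called in replicate 1, 22 further probe sets lay above the filter, of which 15 had the same direction and 7 were also called. Ccna2 (−0.71), Aurkb (−0.81) and 3 of 4 further probe sets of Hmmr (−0.55 to −0.88) were among those called, whereas further probe sets of Anln (0.23), Bub1 (0.30), Cenpa (0.09) and Cenpe (0.05) were not lower. For Nusap1 a dimmer probe set rose (0.45, limma adjusted p = 0.0492), and for Cenpf a second probe set rose by 1.45 while the brightest had −0.16. Further probe sets of Prc1 (−0.65), Kif23 (−0.50) and Cdc25c (−0.53) were called lower, though the brightest of these genes did not pass. With the mean of all probe sets per gene, 17 of 35 genes were called (29.6% of all genes), 15 of them lower. The median was −0.32, against 0.07 over all genes.

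The replicate 1 difference was of unequal size in the 2 groups. In control the 35 genes had a median of −0.61 and 33 were below the mean of replicates 2 and 3. With NCOR1-LYN the median was −0.31 and 28 were below. The genes above that mean with NCOR1-LYN included Gtse1 (1.46), Foxm1 (0.55), Espl1 (0.37) and Bub1b (0.37). In control Foxm1 (−0.41), Espl1 (−0.21) and Bub1b (−0.16) were below it. Seen along pairs, the median change with NCOR1-LYN was 0.15 in pair 1, −0.19 in pair 2 and −0.07 in pair 3. It was positive in 25, 7 and 10 of 35 genes, and the change in pair 1 exceeded both others in 28. In limma the change in pair 1 was higher than that in pairs 2 and 3 for 9 of 35 genes (12% of all genes differed, 5.22% with pair 1 higher) and lower for 0 (6.79% of all genes), while 18 passed an unadjusted p of 0.05 (27.1% of all genes). The median of this difference was 0.29 against −0.02 over all genes. Pair 1 is 1 array per group, so its spread is taken from replicates 2 and 3.

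**Figure D2:**
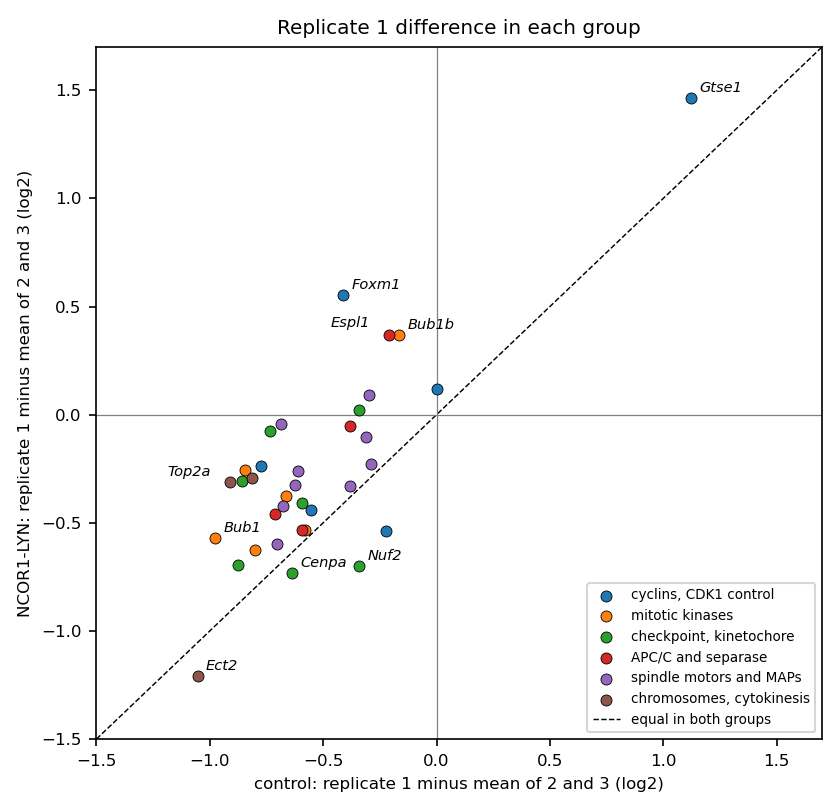
Replicate 1 minus the mean of replicates 2 and 3 on the log2 scale, for each of 35 mitotic genes, in control (x axis) and NCOR1-LYN (y axis), coloured by role. The dashed line marks equal differences. In 31 genes the difference was lower in control than with NCOR1-LYN (points above the line), and the ends are held by Ect2 (−1.05 in control, −1.21 with NCOR1-LYN) and Gtse1 (1.12 and 1.46).

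The 9 genes came from every role. Foxm1 had the largest value at 0.96 ± 0.23 (SE, limma adjusted p = 0.0258), from changes of 0.88, −0.19 and 0.02 in pairs 1, 2 and 3. Its control replicate 1 array was the lowest of the 6 and its NCOR1-LYN replicate 1 array the highest. Further Foxm1 probe sets above the filter had 0.36 and 0.51, and neither was called. With the mean of all its probe sets the value was 0.40, and Foxm1 was not called. Its call was also lost with no filter on dim genes. Ndc80 read 796, 1499 and 1245 in control and 1219.6, 1286 and 1293 with NCOR1-LYN, and the pair difference was 0.66 ± 0.16 (SE, limma adjusted p = 0.0328). Only its control replicate 1 array was low. Tpx2 read 2011, 3377 and 3173 in control and 2755, 2709.8 and 2981 with NCOR1-LYN, at 0.64 ± 0.12 (SE, limma adjusted p = 0.0121). Here too the low array was control replicate 1, while the NCOR1-LYN arrays were close together.

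Ttk read 1029, 1916 and 1878 in control and 1543, 1849.9 and 1859.9 with NCOR1-LYN, and its pair difference was 0.59 ± 0.12 (SE, limma adjusted p = 0.0139). Both replicate 1 arrays were low, the control one lower. Espl1 read 1024, 1244 and 1149.7 in control and 1415, 1069.9 and 1094 with NCOR1-LYN, at 0.58 ± 0.14 (SE, limma adjusted p = 0.0264). As in Foxm1, its lowest and highest arrays were the 2 of replicate 1. Anln read 2166, 3889 and 3833 in control and 3192, 3942 and 3898 with NCOR1-LYN, at 0.53 ± 0.10 (SE, limma adjusted p = 0.0131), with 4 nearly equal arrays above both of replicate 1. Top2a (0.60), Ccna2 (0.54) and Bub1 (0.41), whose signals are given above, shared that pattern of a control replicate 1 array far below its partner. Of 10 further probe sets of 7 of these genes, 9 had the same sign and 1 was called. Among genes not called by the brightest, further probe sets of Kif11 (0.49 and 0.74) and Kif2c (0.47) were called higher in pair 1. Other probe sets of Kif2c had −0.02 and −0.20. Without control replicate 2, the count of genes called fell to 5 of 35, and the share of all genes called fell from 12% to 8.37%.

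**Figure D3:**
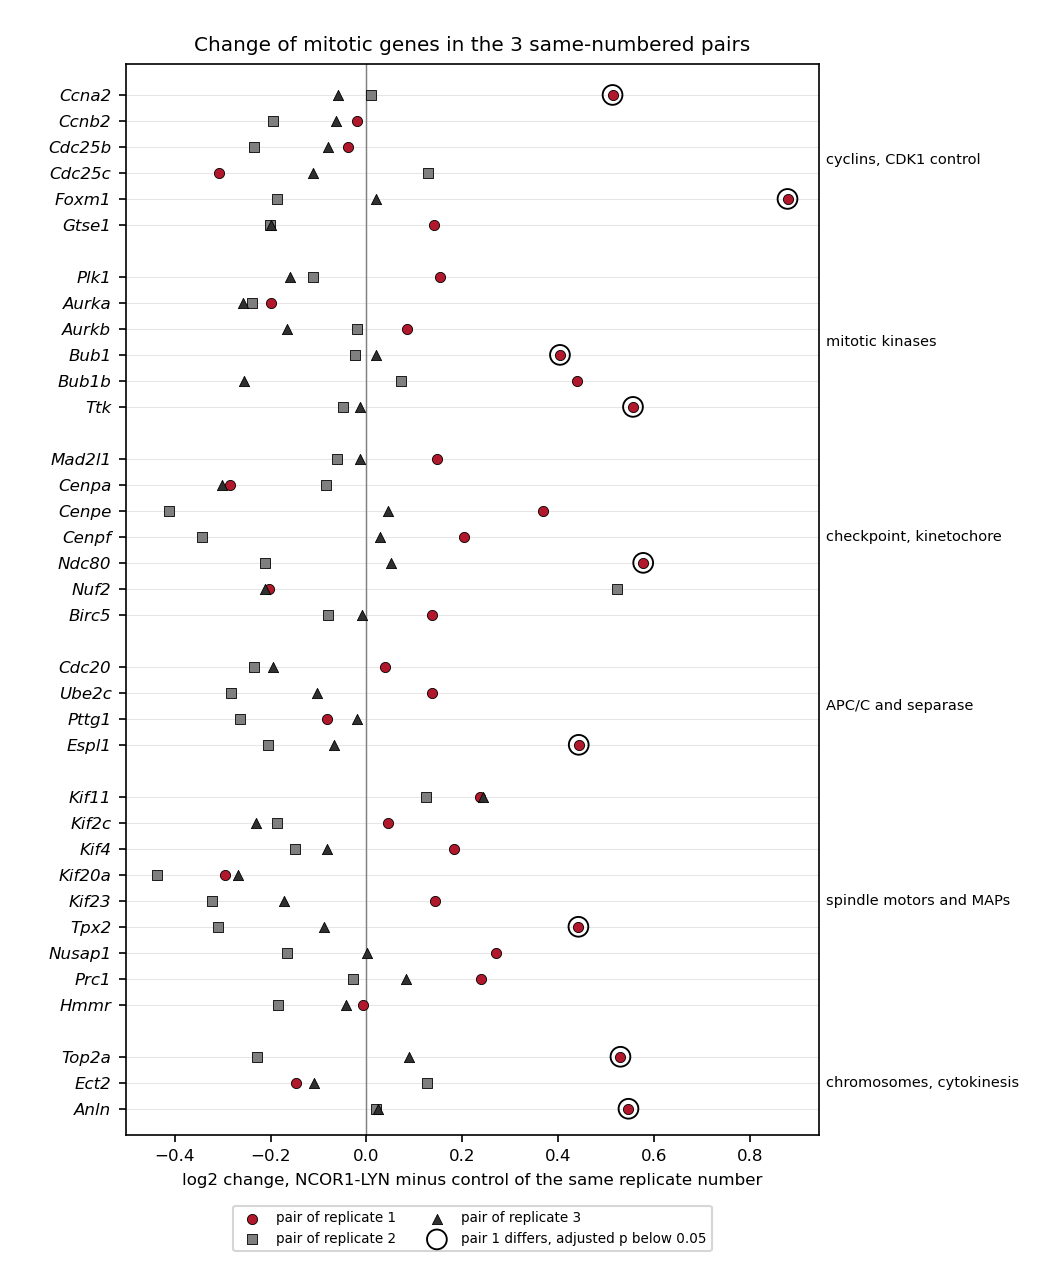
Log2 change with NCOR1-LYN (x axis) within each pair of equal replicate number for 35 mitotic genes grouped by role. Red circles are pair 1, squares pair 2 and triangles pair 3, and rings mark the 9 genes in which the change of pair 1 differed from the others at a limma adjusted p below 0.05. Pair 1 lies to the right of both other pairs in 28 genes.

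Because many of the genes moved together along the replicate number, their promoters were read from RefSeq (assembly GRCm38.p6), 250 bases before to 50 after each start. Of the 36 genes 30 had an entry. The 6 shown here carry TTTGAA, the core of the cell cycle genes homology region (CHR) that MuvB complexes bind, within 60 bases before a start, and CCAAT, the box of the factor NF-Y. They lie at chr4:118437344-118437443 on the minus strand (Cdc20), chr15:102296193-102296292 on the plus strand (Espl1), chr19:37376282-37376381 on the plus strand (Kif11), chr7:80294376-80294475 on the plus strand (Prc1), chr11:99024190-99024289 on the minus strand (Top2a) and chr2:164769829-164769928 on the plus strand (Ube2c). Each is the 100 bases before the start, 5′ to 3′ along the gene, with capitals for TTTGAA or its reverse complement TTCAAA and for CCAAT or ATTGG.
Cdc20 promoter: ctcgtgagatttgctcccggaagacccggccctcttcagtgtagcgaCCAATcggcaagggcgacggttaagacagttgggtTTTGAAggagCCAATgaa
Espl1 promoter: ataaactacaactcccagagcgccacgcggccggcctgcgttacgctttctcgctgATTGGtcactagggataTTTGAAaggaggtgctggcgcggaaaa
Kif11 promoter: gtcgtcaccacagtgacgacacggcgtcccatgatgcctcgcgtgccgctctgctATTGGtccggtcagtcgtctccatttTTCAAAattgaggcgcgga
Prc1 promoter: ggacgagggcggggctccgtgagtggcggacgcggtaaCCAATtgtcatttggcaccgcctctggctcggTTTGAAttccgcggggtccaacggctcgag
Top2a promoter: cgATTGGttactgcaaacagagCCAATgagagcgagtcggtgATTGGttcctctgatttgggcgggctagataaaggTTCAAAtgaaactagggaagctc
Ube2c promoter: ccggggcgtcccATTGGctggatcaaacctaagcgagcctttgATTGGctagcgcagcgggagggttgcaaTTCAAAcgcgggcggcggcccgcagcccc

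In Cdc20, Espl1 and Prc1 the CHR core reads forward, and in Kif11, Top2a and Ube2c it reads in reverse, with at least 1 CCAAT box before it in each. Of these 6 genes Cdc20, Kif11 and Top2a fell in replicate 1, and Espl1, Prc1 and Ube2c did not pass. Searched on both strands of the whole window, TTTGAA stood in 20 of 30 promoters (66.7%) against 20.2% of 27025 genes. CCAAT stood in 22 of 30 (73.3%) against 41.1%. In 95 promoters of other mitosis genes, listed below, the shares were 47.4% for TTTGAA and 60% for CCAAT. In 38 promoters of replication and G1/S genes they were 18.4% and 60.5%. Within only the 150 bases before the start, TTTGAA stood in 8 of 30 (26.7%). There it stood in 29.5% of the other mitosis promoters and in 10.5% of all genes. The CHR variant TTCGAA stood in 4 of 30 (13.3%, 1.8% of all genes). The E2F motifs TTCCCGCC and TTTCGCGC stood in 0 of 30 (2.52% and 0.374% of all genes), while 21.1% and 18.4% of 38 promoters of replication and G1/S genes held them. Genes with TTTGAA fell in replicate 1 in 13 of 20 cases (median −0.51) and those without it in 7 of 9 (median −0.52). A match says only that the letters are there, and the genes were listed for their late cell cycle role.

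Further genes of mitosis, listed by function, mostly had the same signs. Of 120 tested in 7 lists, 56 fell and 4 rose in replicate 1, with a median of −0.28, where 15% of all genes fell and 19.4% rose. In 37 other kinetochore and centromere genes 22 fell and 0 rose, led by Cenpw (−1.21), Cenpn (−0.97) and Spc24 (−0.93), all parts of the kinetochore. Of 20 spindle genes 10 fell, among them Cep55 (−1.02), which directs abscission, and the kinesin Kif18a (−0.99), and 2 rose, Psrc1 (1.63), a spindle protein and p53 target, and the kinesin Kifc1 (0.38). Of 19 genes of condensin, cohesin and their loaders 10 fell, with the cohesin subunit Rad21 (−1.22) and the condensin subunit Ncaph (−1.02) first, and 1 rose, the loader Nipbl (0.70). Of 17 APC/C genes 4 fell, closer to the share of all genes than in the lists before, Anapc15 (−0.85), Cdc27 (−0.84), Anapc10 (−0.77) and Anapc4 (−0.27). Of 10 cytokinesis genes 3 fell, of 10 proliferation markers 5, and of 9 further CDK1 regulators 3, Cks1b (−0.62), Cdk1 (−0.50) and Cks2 (−0.32), while Cdc25a (0.46) rose.

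In the same 120 genes the change with NCOR1-LYN was higher in pair 1 for 27 and lower for 2 (5.22% and 6.79% of all genes), with a median of 0.26. Spc25 (1.15), a subunit of the NDC80 complex, had the largest value, followed by the cytokinesis gene Iqgap3 (0.91), the centromere gene Cenpq (0.83) and Mki67 (0.79), the gene of the proliferation antigen Ki-67. Between the groups, 0 of 120 were called in limma without the block (3 at an unadjusted p of 0.05) and 1 with it, near the 0.824% of all genes called there. That 1 was Esco2, an acetyltransferase of cohesin (0.67 ± 0.10 SE, limma adjusted p = 0.0471, blocked).

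Of 17 genes of the MuvB and DREAM complexes, which repress or activate late cell cycle genes, and of NF-Y, 6 fell and 4 rose in replicate 1, against 15% and 19.4% of all genes, with a median of −0.04. The share that rose was near that of all genes. Lin9 (−0.81), a core subunit of MuvB, fell, and Tfdp2 (0.88), the partner of E2F proteins, and Rbl2 (0.53), the pocket protein p130 of DREAM, rose. Between the groups 0 of 17 were called, with and without the block, and 0 of 17 differed between pairs (at an unadjusted p of 0.05, 1 with the block and 4 between pairs, in limma).

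**Figure D4:**
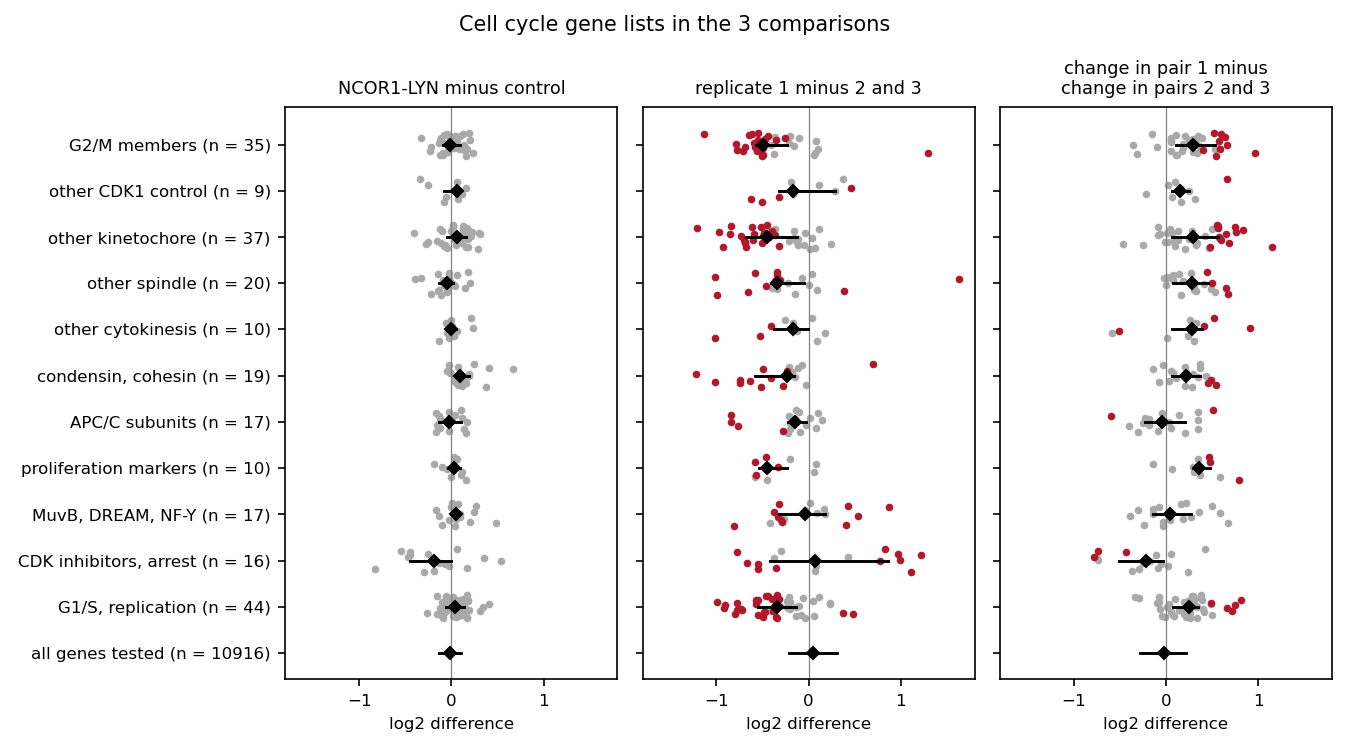
Log2 differences (x axis) of the 35 mitotic genes and of 10 other gene lists in the 3 comparisons, 1 point per gene, red where the limma adjusted p was below 0.05. Diamonds are medians and bars interquartile ranges, and the lowest row gives them for all 10916 genes. The middle panel shows most lists left of 0, and the mitotic genes have medians of −0.02, −0.50 and 0.29 from left to right.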

How the data were processed

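RNA of 6 samples was hybridised to 1 Affymetrix mouse array each. The deposited values are linear signal intensities. The submitters' processing notes name MAS5, and its version is not given in the sources used here. The values show a mean of 500 on every array after trimming 2% at each end. Of 45101 probe sets, the 34945 with exactly 1 symbol in the platform annotation, control probe sets left out, entered. Intensities were used as log2(signal + 64), which understates changes of dim genes. Each gene was its brightest probe set, and genes below the 40th percentile (a signal of about 47) were left out.

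All 10916 genes were fitted with limma 3.58.1 in R 4.3.3 (lmFit, eBayes with trend, two-sided), and p-values were adjusted by Benjamini-Hochberg over all of them. The fits were NCOR1-LYN against control without and with the replicate number as a block, replicate 1 against 2 and 3 with the group as a term, and the change in pair 1 against that in pairs 2 and 3. Residual degrees of freedom were 4, 2, 3 and 2.

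Replicate numbers come from the labels. Across genes, deviations from group means of same-numbered arrays correlated at 0.618, 0.411 and 0.439. Each exceeded 0.1, and the numbers were used as pairs. Values for the crossed match of replicates 2 and 3 were 0.396 and 0.485, so the check parts replicate 1 from the rest and does not tell 2 from 3.

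Array values are given for members called in a comparison (up to 8 per direction) and, where fewer than 6 were called, for the 3 largest differences of either sign. Of other lists up to 3 genes per comparison are named, and genes named beyond that were chosen after their values were seen. The members, lists and comparisons were chosen with earlier results of these data known. Alternatives covered the offset, filter, scaling, probe set choice, array weights, the block and left-out arrays.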

Additional observations from a re-analysis of the deposited data

Results flagged for a closer look

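In 9 mitotic genes the change with NCOR1-LYN differed between replicate pairs by a test of the difference itself, the change in pair 1 minus that in pairs 2 and 3 on the log2 scale (limma, adjusted over 10916 genes). The values were 0.963 for Foxm1 (adjusted p = 0.0258), 0.657 for Ndc80 (adjusted p = 0.0328), 0.642 for Tpx2 (adjusted p = 0.0121) and 0.6 for Top2a (adjusted p = 0.0325). Ttk had 0.587 (adjusted p = 0.0139), Espl1 0.58 (adjusted p = 0.0264), Ccna2 0.538 (adjusted p = 0.0118), Anln 0.525 (adjusted p = 0.0131) and Bub1 0.406 (adjusted p = 0.0419). All 9 were positive, from 1 array per group in pair 1, and the cause was not tested. Further probe sets of Foxm1 above the filter had 0.36 and 0.51 and were not called.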

How the results depend on the processing

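For NCOR1-LYN against control, 0 members were called in each alternative but array weights and both replicate 1 arrays left out. These gave 1 (Kif20a, with 4.55% of all genes called) and 2 (6.78%). The replicate block gave 0 calls and a median of −0.0159. Leaving out 1 array gave 0 calls and medians from −0.192 (without control replicate 1, 31 of 35 lower) to 0.105 (without control replicate 3, 23 of 35 higher). The median was −0.105 with array weights and −0.115 with both replicate 1 arrays left out, 30 and 29 of 35 being lower. The sign of this median is therefore not settled. For replicate 1, leaving out 1 array gave 20 to 29 calls (22.5% to 41.8% of all genes). Medians ran from −0.613 to −0.313, the latter without control replicate 1 and so with NCOR1-LYN arrays only (−0.313). The mean of all probe sets gave −0.32 and turned Cenpf (0.487, adjusted p = 0.00471) and Nusap1 (0.00732, adjusted p = 0.964), since their other probe sets differ. For the difference between pairs, the main fit called 12% of all genes. With no filter on dim genes, where more genes were tested, 3 members were called (2.73% of all genes). The mean of all probe sets gave 4 (8.89%). With 1 array left out 5 to 11 were called (8.37% to 14.7%), the 5 without control replicate 2 (8.37%). The median of this difference was 0.248 with a larger offset, 0.263 after quantile normalization, 0.359 after median centring and 0.243 to 0.276 with 1 array left out. The causes of these shifts were not tested. This difference could not be fitted without either replicate 1 array. Of the single members in replicate 1, 39 of 558 values under alternatives lost their call and 28 gained one, and in the difference between pairs 17 and 6 of 418. The number of arrays limits the precision.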

Other observations

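Genes before and beside mitosis were also read along the replicate number. Of 44 genes of DNA replication and the G1/S transition 23 fell and 2 rose in replicate 1 (15% and 19.4% of all genes), with a median log2 difference of −0.34. Prim2, a primase subunit (−0.99), Orc6 of the origin recognition complex (−0.92) and Rrm2, which makes deoxyribonucleotides (−0.91), fell most, and the D-type cyclins Ccnd2 (0.48) and Ccnd3 (0.37) rose. In 5 of the 44 the change with NCOR1-LYN was higher in pair 1 (5.22% of all genes), with Rfc4 (0.81), Rrm2 (0.75) and Cdc45 (0.72) first.

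Of 16 CDK inhibitors and other genes of growth arrest, 6 rose and 5 fell in replicate 1 (19.4% and 15% of all genes). Their median log2 difference was 0.07, against 0.04 over all genes, with values from −0.78 to 1.22. The replicate 1 values given next are all from the positive side. The antiproliferative gene Btg2 read 1028, 381 and 394 in control and 697, 272 and 279.9 with NCOR1-LYN, a log2 difference of 1.22. Cdkn1a, the gene of p21, read 10734, 5536 and 5189.5 in control and 9705, 4046 and 4176 with NCOR1-LYN, a log2 difference of 1.11, and Gadd45b had 0.99. In both Btg2 and Cdkn1a the replicate 1 arrays were the highest of each group. With the replicate block 1 of the 16, Cdkn2a, which encodes p16 and p19ARF, was lower with NCOR1-LYN (−0.83, limma adjusted p = 0.0309), where 0.559% of all genes were. Btg1 (−0.79) and Sesn1 (−0.74) were among 3 genes whose change was lower in pair 1 (6.79% of all genes), and the third was Ccng2 (−0.43).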
